A study of Mus musculus with 6 samples.

Results

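The comparison covered mouse kidney cells of a mesenchyme gate, sorted as single cells at day 10 and at day 2 of unilateral ureteric obstruction (UUO), in which 1 ureter is tied and the kidney above it is injured and scars. The deposited well layouts give each sorted well its gate, its condition and a number from 1 to 4. Wells with the labels of this gate at day 10 or day 2 were taken, and were kept if they held 1000 genes and 20000 gene reads or more. They came to 742 of the 2235 kept wells of the series, 376 at day 10 and 366 at day 2, of 384 sorted wells each. Numbers 1 to 4 gave 126, 64, 61 and 125 wells at day 10, and 111, 64, 64 and 127 wells at day 2. The counts of a day and number were added up, and these 4 sums a day are the replicates (n = 4 each). The number was taken as the replicate. Per the labels each of 6 plates held cells of 3 mice (a healthy mouse, a mouse at day 2 and a mouse at day 10), and numbers 1 and 4 each span a pair of plates, so a sum of number 1 or 4 may pool 2 mice. No separate culture, litter or date is given, so p-values measure the spread between these sums. Kept mesenchyme-gate wells of healthy mice, 364 in all, entered the fit and the clustering, and give the healthy ranges below. Reads were made with Smart-seq2, which copies whole transcripts of 1 cell per well.

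The mesenchyme of the kidney holds fibroblasts, the pericytes and smooth muscle cells that wrap vessels, the mesangial cells of the glomerulus, and the renin cells at its inflow. Under obstruction, tubule cells are stressed and lost, and mesenchymal cells deposit collagen and other matrix between the tubules. Early obstruction is known for tubule injury, and later obstruction for fibrosis. The comparison of day 10 with day 2 asks how the cells of this gate differ between these phases.

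The gate matched its label. Pdgfrb, a growth factor receptor found on mural cells and fibroblasts, ranged from 657 to 1184 CPM (read counts scaled to a common total per sum) in day 10 sums and from 857 to 1150 CPM in day 2 sums, against 3.04 to 61.0 and 0.721 to 41.7 CPM in the endothelia gate at day 10 and day 2. Pecam1 and Cdh5, which define endothelium, did not exceed 13.1 and 4.56 CPM at day 10, or 4.02 and 5.29 CPM at day 2, and Ptprc, which defines leukocytes, did not exceed 3.77 and 0.899 CPM. Not all wells were mesenchymal: Umod, a gene of the thick ascending limb of the tubule, stood at 180 to 1689 CPM at day 10 and at 1.04 to 332 CPM at day 2. The 18 tubule transcripts listed summed to between 580 and 2438 CPM at day 10 and between 302 and 927 CPM at day 2. The median well held 312617 reads at day 10 and 377554 at day 2. Each day took the same plate columns on all plates, so day and plate column cannot be told apart. In sums of wells, fewer cells of a type and less RNA per cell cannot be told apart either.

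Of 14582 genes tested, 7 passed an adjusted p of 0.05 (0.048% of those tested), 6 of them higher at day 10 (0.0411%) and 1 lower (0.00686%). At an unadjusted p under 0.05 there were 1227 genes (8.41%), 631 higher (4.33%) and 596 lower (4.09%). The 4 sums of day 10 did not overlap the 4 of day 2 for 716 genes (4.91%), 393 higher (2.7%) and 323 lower (2.22%). The median log2 change over all genes was 0.0024. The 6 genes that rose were Ppic, Lcn2, Lgals9, Ccdc80, Aldh1a2 and Serpine2, and Ephx3 fell. Leaving out number 1, 2 or 4 left 3, 5 and 5 calls, of which 3 were among the 7 each time. Without number 3, which is plate 4, none passed in edgeR, with 940 genes at an unadjusted p under 0.05. The 7 genes then kept their sign, at 1.82 for Ppic, -2.16 for Ephx3, 6.38 for Lcn2, 1.80 for Lgals9, 1.69 for Ccdc80, 1.65 for Aldh1a2 and 0.69 for Serpine2 (log2), with adjusted p from 0.0727 to 0.427. With 1 sum per plate in place of 1 per number, 65 genes passed, 28 higher and 37 lower. The 2 plates of number 1, and those of number 4, may share mice, and their sums would then not be separate replicates. Passes with sums per plate carry this limit throughout. DESeq2 on the same sums and the same 14582 genes called 376, 265 higher and 111 lower, these 7 among them. The DESeq2 counts given for gene lists below stand beside that total.

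The 7 genes lie on different chromosomes of GRCm38 (GENCODE annotation): Ppic on 18 (53406332 to 53418115), Ephx3 on 17 (32183770 to 32189549), Lcn2 on 2 (32384633 to 32388252), Lgals9 on 11 (78962974 to 78984946), Ccdc80 on 16 (45093402 to 45128077), Aldh1a2 on 9 (71215789 to 71296243) and Serpine2 on 1 (79794197 to 79861180). RefSeq promoters (GRCm38.p6, 250 bases before and 50 after the gene start) were found for 5 of them. Those of Lcn2, Lgals9 and Ephx3, all genes of the minus strand, are shown because Lcn2 had the largest rise, Ephx3 the only fall and Lgals9 a rise in a gene of immune signalling. They are chr2:32387690-32387989, chr11:78984875-78985174 and chr17:32189421-32189720.
Lcn2: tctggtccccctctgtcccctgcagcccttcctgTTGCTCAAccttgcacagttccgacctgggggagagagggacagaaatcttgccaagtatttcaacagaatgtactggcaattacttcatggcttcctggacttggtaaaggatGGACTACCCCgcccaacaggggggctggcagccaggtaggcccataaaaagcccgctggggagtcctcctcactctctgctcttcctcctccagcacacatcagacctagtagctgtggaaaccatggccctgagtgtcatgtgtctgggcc
Lgals9: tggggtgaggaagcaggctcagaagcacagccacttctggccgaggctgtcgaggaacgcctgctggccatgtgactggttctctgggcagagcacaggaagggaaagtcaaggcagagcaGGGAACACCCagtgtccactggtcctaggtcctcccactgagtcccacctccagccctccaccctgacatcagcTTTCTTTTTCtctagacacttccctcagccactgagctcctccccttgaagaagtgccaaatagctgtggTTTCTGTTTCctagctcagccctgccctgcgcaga
Ephx3: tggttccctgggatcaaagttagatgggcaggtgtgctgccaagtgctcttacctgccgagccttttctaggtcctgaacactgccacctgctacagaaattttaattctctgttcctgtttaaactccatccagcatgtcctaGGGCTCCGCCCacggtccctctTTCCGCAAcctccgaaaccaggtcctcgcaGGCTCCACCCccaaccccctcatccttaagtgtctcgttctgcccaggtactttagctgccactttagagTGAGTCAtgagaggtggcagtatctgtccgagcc
Capitals mark matches, on either strand, to 4 motifs of factors active in injury: GGG and CC with 5 bases between them (kappaB), TTNNGNAA (C/EBP), TGANTCA (AP-1) and GAAA, 2 bases and GAAA again (the interferon response element, ISRE). Lcn2 held 1 kappaB match (bases 149 to 158 of the run) and 1 C/EBP match (bases 35 to 42). Lgals9 held 2 ISRE matches (bases 196 to 205 and 266 to 275) and 1 kappaB match (bases 122 to 131). Ephx3 held 3 kappaB matches, of which those starting at bases 145 and 146 overlap, with 1 C/EBP match (bases 167 to 174) and 1 AP-1 match (bases 267 to 273). Of 32851 promoters of this length, 50.8% held a kappaB match, 40.7% a C/EBP match, 7.81% an AP-1 match and 3.44% an ISRE match. A match describes letters, and binding was not measured.

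Ppic encodes cyclophilin C, a prolyl isomerase of the secretory pathway, where collagen chains fold. Its level was 181, 187, 239 and 197 CPM in day 10 sums and 65.2, 43.2, 62.8 and 56.1 CPM in day 2 sums. Every day 10 sum was above every day 2 sum, and the log2 change was 1.83 ± 0.16 (SE), adjusted p = 0.00287. Healthy sums held 61.6 to 95.9 CPM. In wells thinned to 100000 reads, Ppic was read in 48.1% of day 10 wells and 30.3% of day 2 wells, against 57.9% and 45.7% of endothelia-gate wells at day 10 and day 2. Thinning left out 14 day 10 and 6 day 2 wells as too shallow. The unthinned shares were 49.7% at day 10 and 32.5% at day 2 for Ppic, 15.7% and 34.97% for Ephx3, 16.5% and 10.1% for Lcn2, 32.7% and 17.5% for Lgals9, 54.0% and 34.7% for Ccdc80, 19.4% and 9.29% for Aldh1a2, and 92.0% and 89.1% for Serpine2.

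Lcn2 encodes lipocalin 2, an iron-siderophore binding protein that injured tubule cells release. Its level was 139, 471, 694 and 294 CPM at day 10, against 8.92, 3.08, 13.8 and 1.21 CPM at day 2. The days did not overlap, with a log2 change of 6.13 ± 0.64 and adjusted p = 0.0078, and healthy sums did not exceed 0.0492 CPM. The share of thinned wells in which it was read differed little, 9.12% at day 10 and 7.78% at day 2, beside 1.60% and 6.16% in the endothelia gate. The reads came from few wells: a cluster of 24 wells led by Lcn2, Umod and Slc12a1 held a pooled 8687 CPM in its 20 day 10 wells and 227 CPM in its 2 day 2 wells, and pooled Lcn2 did not exceed 9.42 CPM in any class with a mesenchymal name. Umod, Slc12a1, Wfdc2, Mal and Cldn4 lead this cluster beside Lcn2, and it had no mesenchymal name. Without the wells outside the mesenchymal classes, the log2 change was -3.26 ± 1.40, adjusted p = 0.531, so the rise was not seen in wells with a mesenchymal name.

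Lgals9 encodes galectin 9, a secreted lectin that binds immune receptors. Its level was 234, 95.9, 225 and 132 CPM at day 10 and 65.7, 31.5, 56.4 and 35.3 CPM at day 2. The days did not overlap, and the log2 change was 1.84 ± 0.22, adjusted p = 0.0217. It passed in 10 of 22 alternatives, and not without the number block or without any 1 of the numbers. Thinned wells with a read made up 27.6% at day 10 and 11.9% at day 2, against 83.5% and 75.6% in the endothelia gate. Ccdc80 encodes a secreted protein that binds matrix. It stood at 340, 238, 449 and 270 CPM at day 10, against 96.5, 60.6, 124 and 114 CPM at day 2, with 237 to 338 CPM in healthy sums. The day 10 sums were all above the day 2 sums and 2 of the 4 lay within the healthy range, and the log2 change from day 2 was 1.73 ± 0.22, adjusted p = 0.0249. It passed in 13 of 22 alternatives, and not without any 1 of the numbers. A read was found in 48.9% of thinned wells at day 10 and 31.1% at day 2, against 49.3% and 47.3% in the endothelia gate.

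Aldh1a2 encodes the enzyme that makes retinoic acid from retinal. It stood at 191, 37.4, 362 and 141 CPM at day 10 and 42.9, 15.4, 55.9 and 48.9 CPM at day 2. The days overlapped, since number 2 was low on both, but each number was higher at day 10 than at day 2, with a log2 change of 1.89 ± 0.25 and adjusted p = 0.0304. It passed in 11 of 22 alternatives, and not without the number block, with 8 sums of day 10 and day 2 only, or without number 1, 3 or 4. It was read in 18.2% of thinned wells at day 10 and 7.78% at day 2, against 1.60% and 0.84% in the endothelia gate. Serpine2 encodes protease nexin 1, an inhibitor of thrombin and plasminogen activators. It stood at 2949, 2009, 2094 and 2090 CPM at day 10, against 1645, 1323, 1154 and 1395 CPM at day 2. The change, 0.72 ± 0.10 on the log2 scale, was the smallest of the 7, with adjusted p = 0.048. It passed in 7 of 22 alternatives, and not without the number block, with 8 sums only, with each well scaled to the median total, or without any 1 of the numbers. Serpine2 was read in 88.4% of thinned wells at day 10 and 85.8% at day 2, so most wells held it on both days, against 42.4% and 62.8% in the endothelia gate.

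Ephx3, an epoxide hydrolase gene that marks kidney pericytes here, was the gene that fell. Its level was 87.3, 83.7, 120 and 126 CPM at day 10 and 582, 378, 423 and 394 CPM at day 2, with 239 to 306 CPM in healthy sums. All day 10 sums lay under all day 2 and all healthy sums. The log2 change was -2.09 ± 0.19, adjusted p = 0.00287, and the share of thinned wells with a read was 13.3% at day 10 and 29.2% at day 2, against 2.40% and 1.68% in the endothelia gate.

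**Figure D1:**
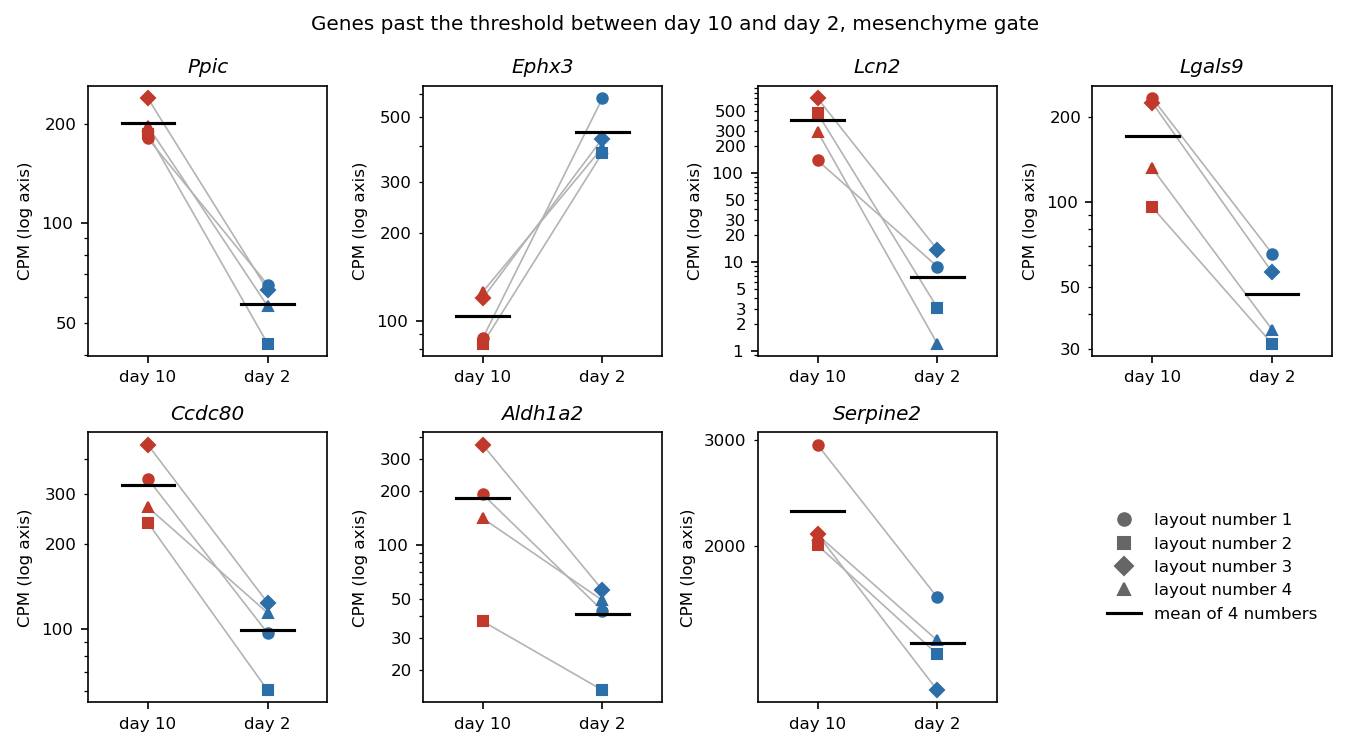
Level of the 7 genes past the threshold, in CPM on log axes, in the day 10 (left, red) and day 2 (right, blue) sums; each shape is a layout number, grey lines join sums of 1 number and black bars are means. Ephx3 is lower at day 10 in all 4 numbers and the other 6 genes are higher in all 4, and only Aldh1a2 overlaps between days.

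The naming rule then took the genes of smallest p that missed the threshold. Above, these were Mxra8 (a membrane protein of cell adhesion) at 1.10 ± 0.17 log2, Bicc1 (an RNA-binding protein) at 1.44 ± 0.24, Spon1 (the secreted F-spondin) at 1.62 ± 0.28 and Pltp (phospholipid transfer protein) at 2.43 ± 0.43, with adjusted p from 0.0794 to 0.14. Mxra8 held 351, 173, 443 and 345 CPM at day 10 and 156, 113, 146 and 172 CPM at day 2, which did not overlap by a narrow margin. Below, they were Kap and Slc34a1, which mark the proximal tubule, at -4.48 ± 0.68 and -4.75 ± 0.88, and Id1 (a BMP target) at -0.78 ± 0.13. The remaining genes were the kinase gene Itpk1 at -0.77 ± 0.13, the membrane tether gene Esyt1 at -0.71 ± 0.12, the phosphatase gene Dusp3 at -0.74 ± 0.13, the odorant receptor gene Olfr558 at -0.95 ± 0.17, the calmodulin gene Calm2 at -0.54 ± 0.10 and the CTP synthase gene Ctps at -1.11 ± 0.21. Adjusted p of these 9 ran from 0.0794 to 0.15. Calm2 was tight within each day, at 1005, 1236, 956 and 1060 CPM at day 10 and 1589, 1532, 1508 and 1532 CPM at day 2.

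Wells were clustered, and a cluster was named for a cell type when it held at least 3 of its markers and more than of any other type. Clusters with more markers of another type among their top 10 genes kept no name. Sizes are compared in a clustering that left out the 256 of 2000 variable genes with an unadjusted p under 0.05 between the days, and levels in the clustering with all variable genes. Fibroblast-like wells made up 17.5%, 4.69%, 24.6% and 20.8% of wells at day 10, and 4.50%, 0%, 7.81% and 3.15% at day 2. They were 66 wells at day 10 and 14 at day 2, and the 0 of 64 wells in number 2 at day 2 allows a share of up to 4.69%. Number 2 at day 10 lay within the day 2 range, and the means were 16.9% ± 8.64 and 3.87% ± 3.24 (SD), with an exact two-sided permutation p = 0.0571 (adjusted over 10 clusters, 0.19). The cluster led by Ephx3, which holds 224 wells that the other clustering called pericyte-like, had 10.3%, 9.38%, 13.1% and 15.2% of wells at day 10 and 27.9%, 23.4%, 26.6% and 22.8% at day 2. The days did not overlap, and the exact p was 0.0286, the smallest that 4 against 4 allows (adjusted 0.143). The cluster led by Lcn2 held 5.60% ± 2.18 of wells at day 10 and 0.422% ± 0.49 at day 2 (exact p = 0.0286, adjusted 0.143). Vascular smooth muscle-like wells made up 33.4% ± 14.3 at day 10 and 43.4% ± 5.86 at day 2, with the highest share of all, 54.7%, in number 2 at day 10 (exact p = 0.257). Renin cell-like wells made up 13.8% ± 6.28 at day 10 and 7.52% ± 3.27 at day 2 (exact p = 0.171). In the clustering with all variable genes, the renin cell-like difference was larger (14.4% ± 4.79 at day 10 and 3.54% ± 3.25 at day 2, exact p = 0.0286, adjusted 0.0952), so it depends on the genes used to cluster. Mesangial-like wells made up 8.31% ± 6.23 at day 10 and 5.58% ± 2.49 at day 2 (exact p = 0.429).

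**Figure D2:**
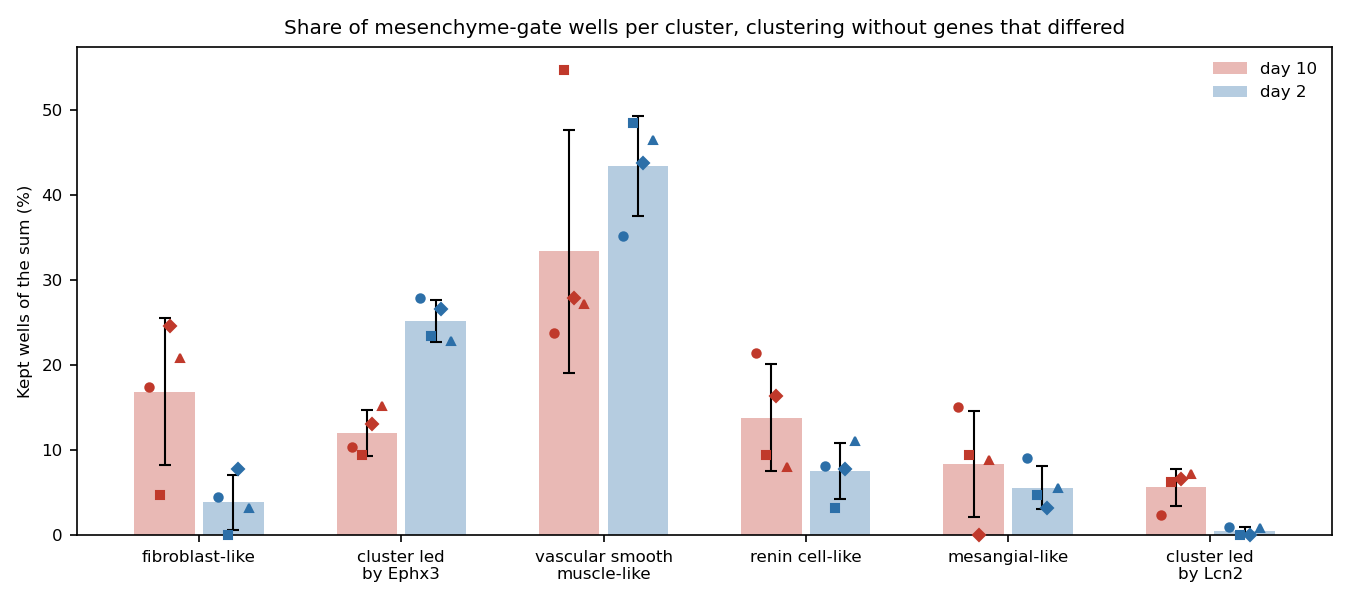
Share of kept mesenchyme-gate wells (%) per cluster at day 10 (red) and day 2 (blue), with bars for means, error bars for SD and a point for each of 4 layout numbers (circle, square, diamond and triangle for 1 to 4). The days do not overlap in the clusters led by Ephx3 (10.3%, 9.38%, 13.1% and 15.2% at day 10, and 27.9%, 23.4%, 26.6% and 22.8% at day 2) and by Lcn2, and number 2 holds the lowest fibroblast-like share on both days.

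Within classes, levels are pooled over wells and are a description, since fibroblast-like wells at day 2 reached 5 wells in 2 numbers. Ppic stood at 733.5 CPM in fibroblast-like wells at day 10 (664 to 835 over 3 numbers) and at 215 CPM at day 2 (158 to 239 over 2 numbers). Aldh1a2 stood at 1013 CPM in fibroblast-like wells at day 10 (719 to 1371) and at 288 CPM at day 2 (64.7 to 468), and at or under 2.68 CPM in smooth muscle-like, pericyte-like and renin cell-like wells on either day. In mesangial-like wells it stood at 0 CPM at day 10 and 160 CPM at day 2. Aldh1a2 is also among the parietal epithelial markers. Its level in parietal epithelial-like wells, 9 at day 10 and 11 at day 2, is not given here. With only wells of mesenchymal classes kept, its log2 change was 3.64 ± 1.27 (edgeR, adjusted p = 0.412). Lgals9 stood at 720 CPM (620 to 879) and 390 CPM (332 to 513) in fibroblast-like wells at day 10 and day 2. In the numbers with fewer than 5 wells, number 2 at day 10 (3 wells) held 868 CPM of Ppic, 357 of Aldh1a2 and 515 of Lgals9, and number 4 at day 2 (4 wells) held 263, 368 and 315 CPM. With these, the days overlapped for Aldh1a2 and did not for Ppic and Lgals9. For Lgals9 the margin was narrow, at 515 CPM in the 3 wells of number 2 at day 10 against 513 CPM in number 1 at day 2. At clustering resolution 2 the fibroblast-like wells formed a cluster led by Nkd2 and Wnt4, with 53 wells at day 10 and 6 at day 2, one led by Clca1 and Fbln5, with 10 and 5, and one led by Sfrp4, Rbp4 and Pi16, with 3 and 3. The part of this makeup in the class levels was not tested. With fibroblast-like wells left out of the sums, Ephx3 (-1.88 ± 0.20) and Lcn2 (6.36 ± 0.64) passed, each with adjusted p = 0.0119. Ppic was then at 0.97 ± 0.26 (adjusted p = 0.499), Ccdc80 at 0.94 ± 0.22 (0.486), Serpine2 at 0.59 ± 0.11 (0.313), Lgals9 at 0.36 ± 0.54 (0.977) and Aldh1a2 at -0.48 ± 0.46 (0.936).

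Pooled Ccdc80 was higher at day 10 in each of the 5 mesenchymal classes, for example 1148 CPM at day 10 and 436 CPM at day 2 in fibroblast-like wells, and 196 CPM (118 to 231) and 76.5 CPM (35.6 to 101) in smooth muscle-like wells. In fibroblast-like wells the margin between the days was narrow. Number 2 at day 10 (3 wells) held 628 CPM, against 610 CPM in number 3 at day 2 (5 wells). Serpine2, which is among the mesangial markers, stood at 5292 CPM in mesangial-like wells at day 10 and 7188 CPM at day 2, and the other 4 mesenchymal classes were higher at day 10. Ephx3, which is among the pericyte markers, stood at 631 CPM (507 to 756) in pericyte-like wells at day 10 and 1500 CPM (1214 to 1800) at day 2, with no overlap between the 4 numbers a day. Because Ephx3 took part in naming these wells, its level there is a description.

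**Figure D3:**
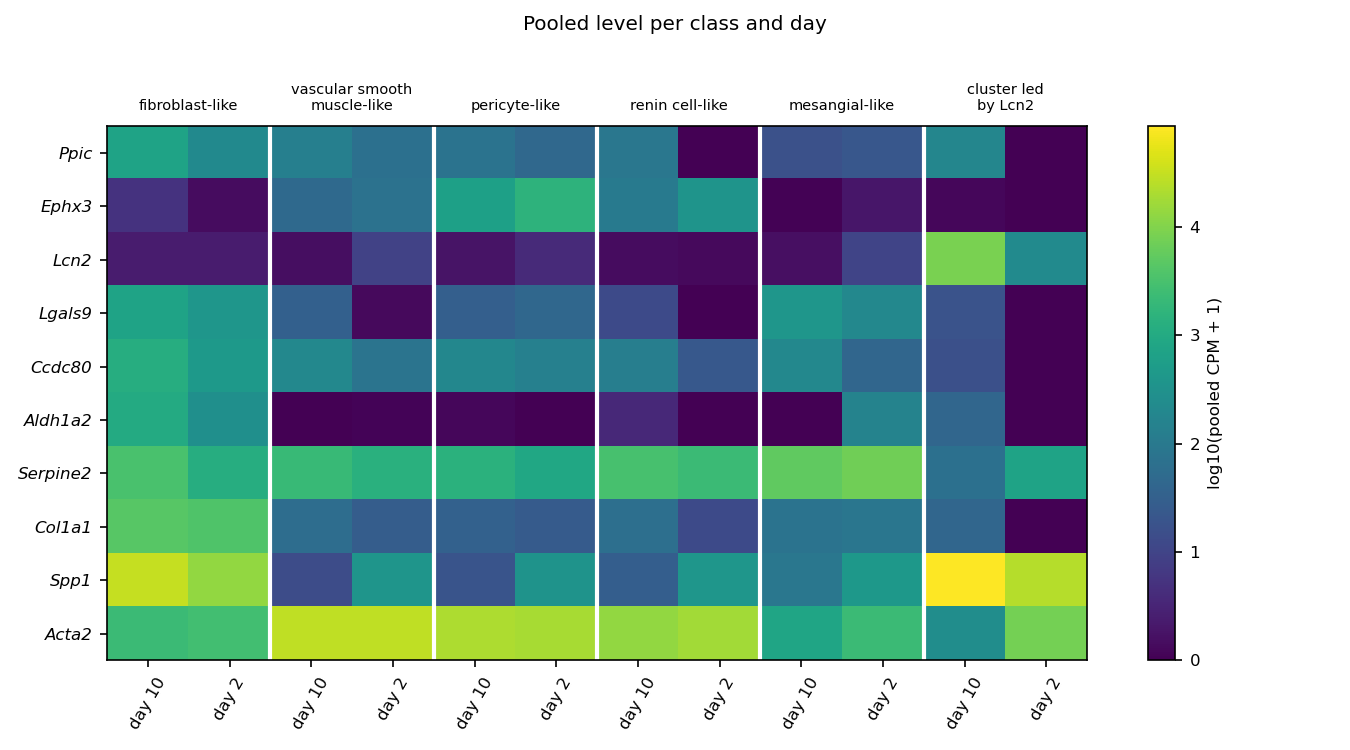
Pooled level, as log10(CPM + 1), of the 7 genes past the threshold and of Col1a1, Spp1 and Acta2 in 5 named classes and the cluster led by Lcn2, day 10 left of day 2 in each. Among the classes shown, Lcn2 is high only in its own cluster (8687 CPM at day 10). Aldh1a2 is highest, among these, in fibroblast-like wells (1013 and 288 CPM at day 10 and day 2). Parietal epithelial-like wells, whose markers include Aldh1a2, are not shown. Acta2 in smooth muscle-like wells, which it helps to name, stands at 29039 and 29079 CPM at day 10 and day 2.

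Of 15 fibrillar and related collagen genes, 0 passed (edgeR; 8 were higher at an unadjusted p under 0.05, and DESeq2 called 6 higher), and 14 had a positive change, with a median of 1.32 against 0.0024 over all genes. Col1a1, the main chain of type I collagen, stood at 731, 180, 1421 and 734.1 CPM at day 10 and 186, 18.1, 335 and 110 CPM at day 2. Each number was higher at day 10, but the days overlapped, and the change of 2.49 ± 0.46 had adjusted p = 0.14. Col1a1 passed in 5 of 22 alternatives, namely with 8 sums only (2.53, adjusted p = 0.0222), without plate 6 (2.50, adjusted p = 0.0329), with no low-count filter, with sums per plate and in DESeq2. Col5a2 (1.78 ± 0.34), Col1a2 (1.32 ± 0.27) and Col5a1 (0.98 ± 0.23) were higher in 4 of 4 numbers, with adjusted p of 0.151, 0.162 and 0.214. Col1a1 in fibroblast-like wells stood at 4477 CPM at day 10 (3835 to 5478) and 3689 CPM at day 2 (3782 to 4346 in the 2 numbers with 5 wells), which overlap. Without the fibroblast-like wells, the gate changes were 0.76 ± 0.26 for Col1a1 and -0.0021 ± 0.34 for Col1a2. Both genes are among the markers that name fibroblast-like wells. Leaving out wells picked for these genes lowers their level by the way of picking, so these changes are a description.

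Of 21 matrix glycoprotein genes, 1 rose (Ccdc80; DESeq2 called 3 higher and 1 lower), and 18 had a positive change, with a median of 1.42. In edgeR 11 were higher and 2 lower at an unadjusted p under 0.05. Thbs2, which encodes thrombospondin 2, was at 2.15 ± 0.42 (adjusted p = 0.156) and Fn1, fibronectin, at 1.42 ± 0.41 (adjusted p = 0.332; 0.0222 with 8 sums only), with no overlap between days for either. Fn1 held 420, 344, 727 and 468 CPM at day 10 and 134, 132, 269 and 203 CPM at day 2. Cyr61, a YAP target that encodes the matricellular CCN1, was at -0.79 ± 0.16 (adjusted p = 0.162). Of 22 genes of collagen folding and processing, 1 rose (Ppic), with a median of 0.32, and the procollagen proteases Bmp1 (0.82 ± 0.20) and Adamts2 (1.08 ± 0.35) missed the threshold. At an unadjusted p under 0.05 in edgeR 4 of the 22 were higher, and DESeq2 called 3 higher. Of 20 proteases and inhibitors, 1 rose (Serpine2), and the membrane protease Mmp14 (1.14 ± 0.21) and the gelatinase Mmp2 (3.16 ± 0.87) missed, with adjusted p of 0.14 and 0.311. Of the 20, 4 were higher and 2 lower at an unadjusted p under 0.05 in edgeR, and DESeq2 called 3 higher. Timp1, a metalloprotease inhibitor, did not pass (0.89 ± 0.48, adjusted p = 0.671), at 140, 128, 567 and 410 CPM at day 10 and 187, 50.5, 299 and 91.5 CPM at day 2. No member of 16 basement membrane genes (7 positive and 9 negative, median -0.02) or 9 proteoglycan genes tested (median 0.45) passed in edgeR, with 4 and 1 members higher at an unadjusted p under 0.05. DESeq2 called 2 basement membrane genes higher and 0 proteoglycan genes.

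Of 20 contractile genes, 0 passed (edgeR; 10 were lower and 1 higher at an unadjusted p under 0.05, and DESeq2 called 4 lower and 1 higher), 18 had a negative change, and the median was -0.38. Acta2, smooth muscle actin, stood at 14936, 18432, 16176 and 12152 CPM at day 10 and 19547, 22215, 23794 and 18884 CPM at day 2. The days did not overlap by a narrow margin, and the change of -0.46 ± 0.09 had adjusted p = 0.162. Tpm2 (tropomyosin, -0.57 ± 0.14), Mylk (myosin light chain kinase, -0.40 ± 0.11) and Smtn (smoothelin, -0.50 ± 0.14) had adjusted p from 0.226 to 0.328. Within smooth muscle-like wells the Acta2 change was -0.02 ± 0.07 (adjusted p = 0.995), at 31852, 26117, 30789 and 28018 CPM at day 10 and 28567, 31920, 30980 and 26986 CPM at day 2. Because Acta2 is among the markers that name these wells, its level there is a description. The lower gate level stood beside a smaller share of Ephx3-led wells at day 10. The mean share of smooth muscle-like wells was smaller too, but did not differ detectably (exact permutation p = 0.257). In number 2 that share was larger at day 10 (54.7%) than at day 2 (48.4%), while Acta2 was lower. The part of either share in the Acta2 level was not tested.

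Of 20 mural identity genes 0 passed (edgeR; 6 lower and 1 higher at an unadjusted p under 0.05, and DESeq2 called 3 lower), with a median of -0.24. The Notch ligand gene Jag1 (-0.65 ± 0.13), the endothelin receptor gene Ednrb (-1.23 ± 0.26) and Notch3 (-0.71 ± 0.16) had adjusted p from 0.156 to 0.193. Ednrb held 317, 192, 154 and 299 CPM at day 10 and 656, 553, 382 and 644 CPM at day 2, with no overlap. It passed in 3 of 22 alternatives: with 8 sums only (-1.24, adjusted p = 0.0416), with sums per plate and in DESeq2. Pdgfrb was at -0.25 ± 0.11 (adjusted p = 0.582). Of 11 renin-angiotensin genes tested 0 passed in edgeR and DESeq2 called 1 higher. In edgeR 1 was higher at an unadjusted p under 0.05: Ren1, renin, held 473, 92.6, 244 and 152 CPM at day 10 and 99.1, 29.5, 55.2 and 127 CPM at day 2 (1.53 ± 0.33, adjusted p = 0.189). It passed in 3 of 22 alternatives: without number 4 (2.03, adjusted p = 0.0311), without plate 5 (1.86, adjusted p = 0.0072) and in DESeq2. Ren2, which can share reads with Ren1, was at 1.27 ± 0.89. In renin cell-like wells, which Ren1 helps to name, Ren1 stood at 1329 CPM at day 10 (782 to 1954) and 1144 CPM at day 2 (1036 to 1351).

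**Figure D4:**
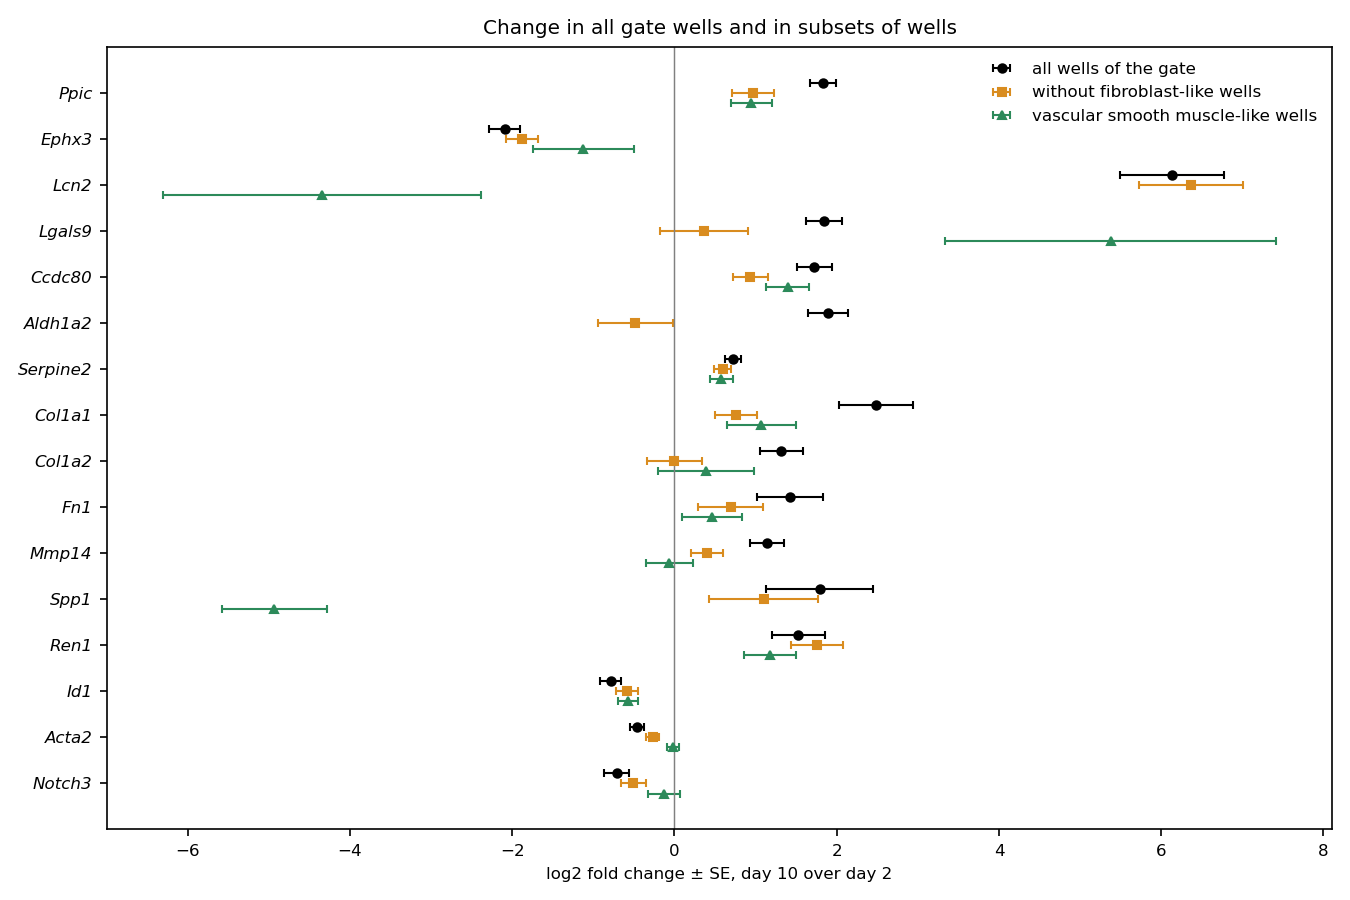
Log2 change of day 10 over day 2 with its SE for 16 genes, in all wells of the gate (black circles), without fibroblast-like wells (orange squares) and in vascular smooth muscle-like wells (green triangles). Without fibroblast-like wells Aldh1a2 moves to -0.48 and Col1a2 to -0.0021, while Ephx3 (-1.88) and Serpine2 (0.59) keep most of their size, and Spp1 is at -4.93 in smooth muscle-like wells. Col1a1 and Col1a2 are among the markers that name fibroblast-like wells, and Acta2 is among those of smooth muscle-like wells.

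Among signalling and stress lists the acute phase and IL-6 list held 1 call and the others 0 in edgeR. DESeq2 called 3 Wnt, 2 TGF-beta, 2 interferon, 2 acute phase and IL-6 and 1 chemokine gene higher and 3 oxidative phosphorylation genes lower, and 0 in the other lists of this group. Over all 14582 genes DESeq2 called 265 higher and 111 lower, and no list was tested as a set. Of 19 Wnt genes tested, 14 were positive and 9 were higher at an unadjusted p under 0.05 (median 0.92). Nkd2, an intracellular Wnt inhibitor, held 137, 59.9, 199 and 89.7 CPM at day 10 and 2.45, 2.40, 1.23 and 0.44 CPM at day 2 (6.20 ± 1.15, adjusted p = 0.14; 0.0222 with 8 sums only), and the secreted Dkk3 was at 1.25 ± 0.30 (adjusted p = 0.22). Of 19 TGF-beta genes, 5 were higher and 1 lower at an unadjusted p under 0.05 (median 0.22), with the receptor gene Acvr1 at 1.45 ± 0.34 and the binding protein gene Ltbp1 at -0.46 ± 0.13. Of 18 interferon genes, 16 were positive and 2 were higher at an unadjusted p under 0.05 (median 0.37), namely Oasl2 (1.45 ± 0.35, adjusted p = 0.226) and Ifi27l2a (2.92 ± 1.00, adjusted p = 0.432). Of 19 acute phase and IL-6 genes 1 rose (Lcn2), with Serpina3g, which can share reads with its cluster, at 4.48 ± 1.12 and Stat3 at -0.41 ± 0.14 (list median -0.09). Of 20 immediate-early genes, 3 were lower at an unadjusted p under 0.05 (median -0.19), among them Atf3 (-0.35 ± 0.12) and Jun (-0.46 ± 0.18). Of 22 genes of oxidative phosphorylation, 17 were negative and 4 were lower at an unadjusted p under 0.05 (median -0.14), with Atp5b, a subunit of ATP synthase, at -0.42 ± 0.10. Medians were 0.53 for 14 NF-kB genes, 0.41 for 12 chemokine genes, 0.38 for 16 antigen presentation genes, -0.27 for 14 complement genes, -0.49 for 19 cell cycle genes and -0.13 for 18 hypoxia and glycolysis genes. These 6 lists held 0 calls in edgeR, and at an unadjusted p under 0.05 the NF-kB and cell cycle lists held 0 members, the antigen presentation, complement and hypoxia lists 1 each, and the chemokine list 2 higher and 1 lower. Medians taken per number changed sign in several lists. In numbers 1 to 4 they were -0.29, 0.39, -0.12 and 0.40 for NF-kB and 0.34, -0.23, -1.535 and -0.37 for cell cycle. For immediate-early genes they were -1.01, -0.058, 0.033 and -0.042.

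**Figure D5:**
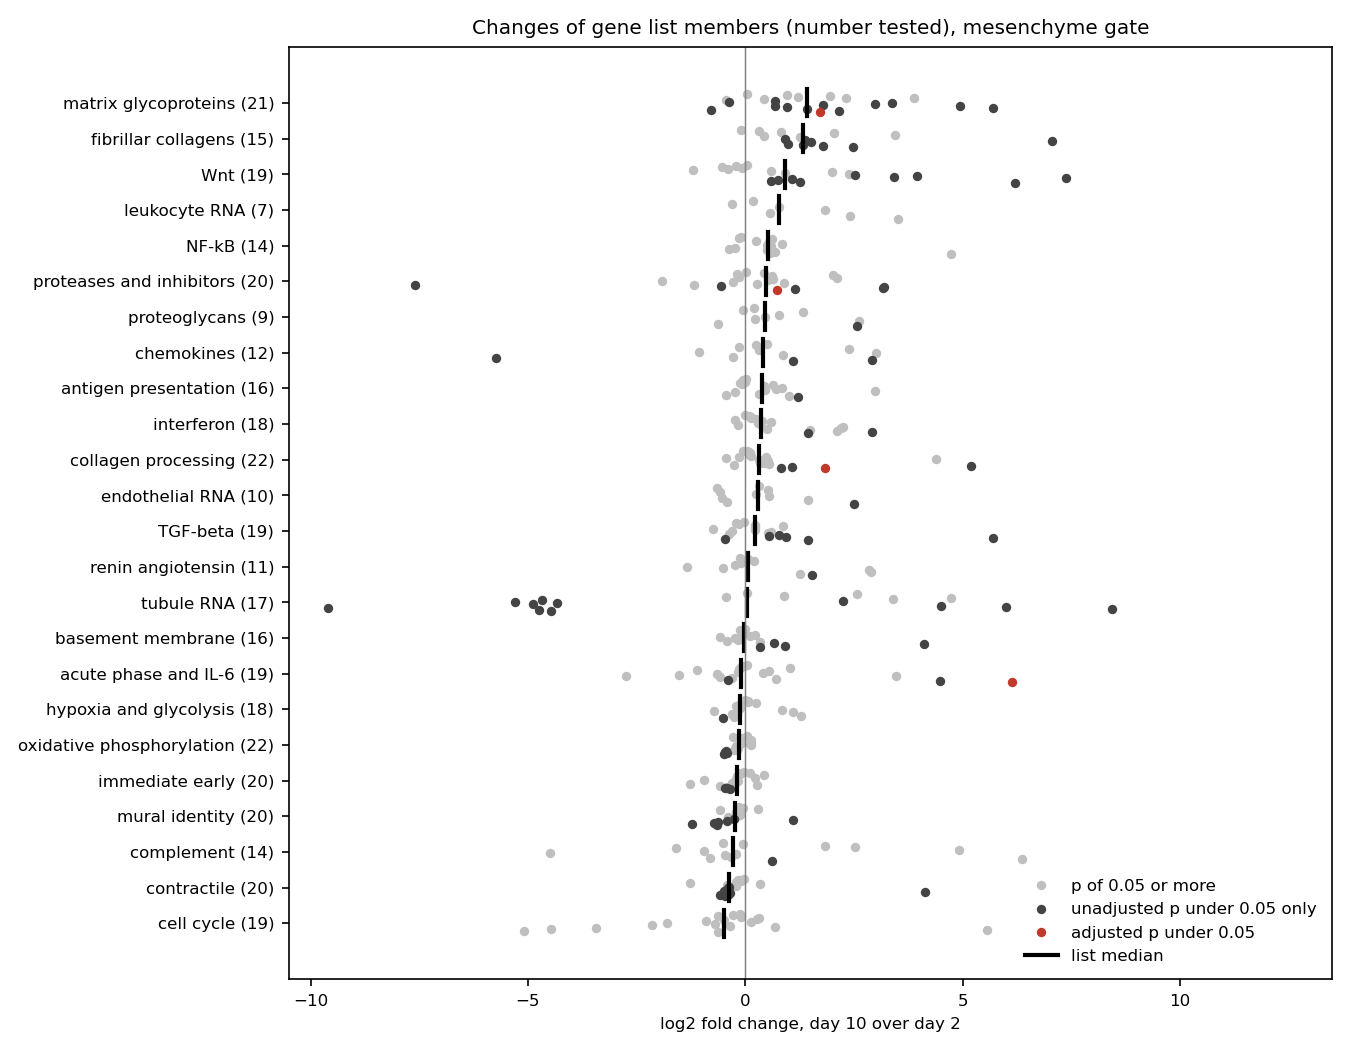
Log2 change of day 10 over day 2 for the tested members of 24 gene lists, 1 point a gene, with list medians as black bars; red points passed an adjusted p of 0.05 and dark points only an unadjusted p of 0.05. The medians run from 1.42 (matrix glycoproteins) to -0.49 (cell cycle, whose median changed sign between numbers). The 4 red points are Ccdc80, Ppic, Serpine2 and Lcn2.

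Of 17 tubule genes tested 0 passed in edgeR, and 4 were higher and 7 lower at an unadjusted p under 0.05. DESeq2 called 4 higher and 7 lower. The proximal gene Kap held 0.0476 to 4.47 CPM at day 10 and 3.34 to 53.3 CPM at day 2 (adjusted p = 0.0794), and it passed in 7 of 22 alternatives. Slc34a1, also proximal, had adjusted p = 0.14 and passed in 4 of 22. Slc12a3, of the distal convoluted tubule, held 4.59 to 172 CPM at day 10 and 0.0426 to 3.06 CPM at day 2 (adjusted p = 0.162). Havcr1, a gene of injured proximal tubule, held 0.62 to 34.5 CPM at day 10 and 0 to 9.82 CPM at day 2 (0.03 ± 0.58, adjusted p = 0.998). The 11 leukocyte transcripts found in the counts summed to 54.2 to 104.7 CPM at day 10 and 21.2 to 45.2 CPM at day 2. Of these, 7 were tested, with none past an unadjusted p of 0.05 in edgeR. The 10 endothelial transcripts summed to 293 to 716 CPM at day 10 and 276 to 851 CPM at day 2, with 1 higher at an unadjusted p under 0.05. DESeq2 called 0 of either. Their part in the changes above was not tested.

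Spp1, osteopontin, which tubule cells and activated mesenchyme make, held 3288, 8754, 8741 and 14000 CPM at day 10 and 553, 2235, 4034 and 4477 CPM at day 2. It was higher at day 10 in each number, but the days overlapped and the change of 1.79 ± 0.66 had adjusted p = 0.478. In fibroblast-like wells the pooled level was 31246 CPM at day 10 (11764 to 51275) and 13453 CPM at day 2 (1061 and 6151 in the numbers with 5 wells, and 38784 in the 4 wells of number 4), so the days overlapped, and in the cluster led by Lcn2 it was 84278 CPM at day 10 and 24186 CPM at day 2. Smooth muscle-like, pericyte-like, renin cell-like and mesangial-like wells held 13.0, 17.8, 28.3 and 87.4 CPM at day 10, against 366, 341, 390 and 417 CPM at day 2. The day 2 levels of these 4 classes lay close together. Without the wells outside mesenchymal classes, Spp1 rose by 3.00 ± 0.35 (adjusted p = 0.012) and Kap fell, at -5.40 ± 0.55 (adjusted p = 0.00588). Itih4, an inter-alpha-trypsin inhibitor chain, did not differ detectably (-0.09 ± 0.45, adjusted p = 0.99), at 731 to 1056 CPM at day 10 and 714 to 1124 CPM at day 2.

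In the 113 day 10 and 167 day 2 smooth muscle-like wells, 1 of 11749 genes tested passed (0.00851%), and 769 had an unadjusted p under 0.05 (6.55%). Gpx3, a secreted glutathione peroxidase of the proximal tubule, held 0.343, 0.161, 1.01 and 1.5 CPM at day 10 and 284, 141, 297 and 314 CPM at day 2. The days lay far apart (-8.70 ± 0.43, adjusted p = 1.28e-05). Spp1 was next at -4.93 ± 0.65 (adjusted p = 0.0779), with 9.94, 11.4, 6.39 and 22.9 CPM at day 10 and 310, 373, 278 and 440 CPM at day 2. The tubule transcripts Kap and Slc34a1 were at -6.76 ± 1.08 (adjusted p = 0.185) and -6.22 ± 1.52 (adjusted p = 0.511). In the endothelia gate these also were lower at day 10, with means of 2.52 and 0.12 CPM against 53.4 and 15.2 CPM at day 2. Slc12a3, of the distal convoluted tubule, was higher there, at 6.09 against 0.0282 CPM. The part of tubule RNA in the Gpx3 change was not tested. The named genes were mostly chosen by their change or p in the gate, and the smooth muscle-like wells are part of the gate. Smaller changes in these wells can follow from that choice, so the next counts are a description. Of 51 named genes tested both in smooth muscle-like wells and in the gate, 35 had a smaller change of the same sign in these wells, 5 a larger one and 11 the other sign. Examples are Ppic at 0.95 ± 0.25, Ccdc80 at 1.39 ± 0.27, Serpine2 at 0.58 ± 0.14 and Id1 at -0.58 ± 0.12, and, of larger size than in the gate, Lgals9 at 5.38 ± 2.04 and Cyr61 at -0.84 ± 0.19, none past the threshold. Lgals9 held 27.5, 47.3, 0 and 33.3 CPM in these wells at day 10 and 0.304, 0.523, 0.438 and 0.197 CPM at day 2. Its large change thus rests on day 2 levels near 0, and number 3 went the other way. Lcn2 was at -4.35 ± 1.96 (adjusted p = 0.76).

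The day 10 minus day 2 change was set against that of the endothelia gate of the same numbers. Of 16116 genes, 0 differed at an adjusted p of 0.05 (0%) in edgeR, and 1301 had an unadjusted p under 0.05 (8.07%). Ppic had the difference of smallest p among the 7 genes, at 1.38 ± 0.23 log2 (adjusted p = 0.0705), with 0.44 ± 0.16 in the endothelia gate. Ccdc80 differed by 2.40 ± 0.42 (adjusted p = 0.0718) and Serpine2 by 2.14 ± 0.43 (adjusted p = 0.142), with endothelial changes of -0.70 ± 0.30 and -1.42 ± 0.30. None of these differences passed, so a change particular to the mesenchyme gate was not shown. Ephx3 differed by -0.52 ± 1.10, with 2.63 CPM at day 10 and 11.8 CPM at day 2 in the endothelia gate.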

How the data were processed

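For each of 6 plates the authors deposited raw read counts per gene and well, raw counts of spike-in RNA and a layout of well labels. Values are unscaled whole numbers. STAR and mm10 are named per the submitters' processing notes; the counting tool, annotation, filters and strand setting are not given in the sources used here. The members and lists were chosen with earlier results of these data known.

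Entries of 1 symbol were added (24490 entries, 23998 symbols). Doublets were not called. Wells with at least 1000 genes and 20000 reads were summed per condition and number (19382742 to 39034641 reads a sum at day 10, 24090310 to 47827752 at day 2). edgeR 4.0.16 (R 4.3.3) tested 12 sums (3 conditions, 4 numbers) with filterByExpr, TMM, quasi-likelihood F tests, number as a block and Benjamini-Hochberg adjustment at 0.05. Same-numbered sums shared deviations weakly (r 0.0149 to 0.136), and the block stands for their shared plates. Changes are on the log2 scale; the SE is the change's size divided by the root of F. CPM in sums are TMM-scaled; class levels and gate markers are unscaled. Clusters used scanpy 1.11.5 (2000 variable genes, 30 components, 15 neighbours, Leiden resolution 1) and at least 3 markers detected in 50% of wells at 2 times the mean over clusters, more than for any other type, with no other type ahead among the top 10 genes. Genes were named by rule: up to 10 a direction past the threshold, at a mean log2 CPM of 4 or more and with a like sign in 4 numbers, filled by smallest p; 2 to 4 members of described lists of smallest p; and Acta2, Col1a1, Pdgfrb, Spp1, Timp1, Itih4, Kap and Havcr1. Names of the Gm, Rik and -ps kind were skipped, and some results the rule would name are not reported here. A like sign in 4 numbers was thus a condition of naming. Alternatives covered DESeq2 1.42.0, scaling, filters, block, plates, left-out numbers, subsets of wells and clustering; the clustering without differing genes was chosen after seeing the data. The fit was tested on simulated data. Limits from a count of 0 use 3 counts and cover counting error only.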

Additional observations from a re-analysis of the deposited data

Results flagged for a closer look

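Of the 4 sums a day, 1 stood far from the other 3 for 2 named genes, judged by its gap as a share of the range; chance gives about 1 such group in 20, and 112 groups of 4 were checked. Serpine2 at day 10 held 2949 CPM in number 1, against 2009 to 2094 CPM in the other numbers. Bmp1 at day 10 held 74.7 CPM in number 2, against 184 to 205 CPM in the others; number 2 is also the day 10 sum with the lowest fibroblast-like share, 4.69% of wells. Whether these differences are technical was not tested.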

How the results depend on the processing

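The 7 calls of the gate became 4 without the replicate block, 31 with no low-count filter, 65 with sums per plate, 11 with 8 sums only, 376 with DESeq2, 2 without fibroblast-like wells, 1 without fibroblast-like and renin cell-like wells, 0 without plate 4 (chosen after seeing the data, as was each plate and the pair of classes), and 0 to 5 without each replicate. All 7 stayed under RLE scaling, no filter, sums per plate and DESeq2. Calls between gates became 1 without the replicate block and 0 to 3 without each replicate. In smooth muscle-like wells 1 gene passed in all 6 alternatives.

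Over 58 named genes and 22 settings, 1087 of 1272 values kept direction and side of the threshold, 96 newly passed, 57 lost it and 32 reversed. Without fibroblast-like wells, changes were -0.48 for Aldh1a2, -0.79 for Spon1, -0.54 for Timp1, 0.14 for Itih4, -0.0021 for Col1a2 (a marker that names these wells), -0.062 for Col5a1, -0.14 for Thbs2, -0.27 for Bmp1, -0.49 for Adamts2 and -0.34 for Nkd2. Without renin cell-like wells as well, they were -0.30 for Aldh1a2, -0.60 for Spon1, -1.05 for Timp1, 0.13 for Itih4, -0.13 for Col5a1, -0.37 for Thbs2, -0.35 for Bmp1, -0.42 for Adamts2 and -0.11 for Nkd2. Lcn2 was -3.26 in mesenchymal classes only and -3.25 without unnamed clusters. Itih4 and Havcr1, near 0 in the gate, reversed elsewhere: Itih4 to 0.16 (sums per plate), 0.13 (without replicate 3, which is plate 4) and 0.39 (without plate 2); leaving out 1 replicate gave -0.16 to 0.13. Havcr1 went to -0.26 (sums per plate), -0.57 (wells of at least 2000 genes and 100000 reads), -1.65 (without replicate 2, which is plate 3), -1.20 (without replicate 4), -0.27 (without plate 2) and -0.95 (without plate 5), and ran from -1.65 to 1.93 without each replicate. The renin cell-like difference reversed to -3.64 points at clustering resolution 2, where the cluster led by Ren1, with 58 day 10 and 17 day 2 wells, kept no name. The cause of the other reversals was not tested. The fibroblast-like difference ran from 11.5 to 15.8 points in all 7 alternatives. No cluster was named smooth muscle-like at resolution 0.5, where a cluster led by Itih4 held means of 45.6% at day 10 and 46.1% at day 2. At resolution 2 the smooth muscle-like class held means of 11.7% at day 10 and 19.2% at day 2. With 4 sums a day, the exact test of shares cannot go below 0.0286.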
